A study of Mus musculus with 6 samples.

Results

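Annotated intergenic lncRNAs are the transcripts of the lncRNA table whose only stated relation to coding genes is intergenic and which come from an existing collection rather than from assembly of the reads. The rule kept 4237 of the 23098 lncRNA transcripts, under 4115 gene names, and left aside the 605 intergenic transcripts with a TCONS identifier. GenBank supplied 2001 of them, Ensembl 1622, the UCSC known genes 424, RefSeq 158 and the catalogue of Lei Sun and colleagues 32. Their lengths ran from 20 to 20771 bases, with a median of 1097, and most GenBank entries carry a placeholder gene name, so they are named here by transcript.

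RNA of C17.2 cells, an immortalized line of mouse neural stem cells (NSCs), was sequenced after removal of ribosomal RNA in 3 control libraries and 3 hypoxia/reoxygenation (H/R) libraries. Cells of both groups were wild-type and grown in medium with serum. For H/R, hypoxia at 5% oxygen lasted 12 h and was followed by 48 h of reoxygenation, which control cells did not undergo. All libraries come from 1 cell line, and the labels do not say whether the replicates were separate cultures, so each p-value measures only the spread between these libraries, which may be technical.

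Long noncoding RNAs are transcripts without a long reading frame. Those between genes include structural RNAs such as 7SK, nuclear scaffolds such as Neat1, hosts from which miRNAs are cut, and many single cDNA clones that were entered in databases when fewer gene ends were known. Because a lncRNA is counted like any other transcript, a cDNA that lies on the far end of a coding gene, or a pseudogene that repeats a coding sequence, can collect reads that also fit the coding gene.

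The promoters of the loci that changed and whose start is shared with RefSeq are shown first, since their sequence is the region closest to the transcripts described below. A RefSeq start lay within 50 bases of the start of 58 tested transcripts, and 6 of these passed the test, at the loci printed below. Of the 6, 5 fell and 1 rose, and 4.93% of all tested lncRNAs passed. Each line gives 250 bases before and 50 after the start, from RefSeq on GRCm38.p6, with capitals marking the letters of a motif of the search.
Gm12022 (chr11:18493217-18493516, minus strand): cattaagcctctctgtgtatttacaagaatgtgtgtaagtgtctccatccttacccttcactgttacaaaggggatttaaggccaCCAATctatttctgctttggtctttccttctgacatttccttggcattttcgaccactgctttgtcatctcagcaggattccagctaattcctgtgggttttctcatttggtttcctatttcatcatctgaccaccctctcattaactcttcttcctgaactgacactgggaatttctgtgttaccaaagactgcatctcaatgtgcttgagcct
Gm20300 (chr10:30606585-30606884, minus strand): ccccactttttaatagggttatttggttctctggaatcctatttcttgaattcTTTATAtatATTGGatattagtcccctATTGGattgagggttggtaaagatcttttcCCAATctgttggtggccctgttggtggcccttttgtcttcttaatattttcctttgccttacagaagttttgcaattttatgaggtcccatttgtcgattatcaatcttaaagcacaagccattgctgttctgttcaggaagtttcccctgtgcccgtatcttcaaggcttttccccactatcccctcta
Dleu2 (chr14:61682324-61682623, minus strand): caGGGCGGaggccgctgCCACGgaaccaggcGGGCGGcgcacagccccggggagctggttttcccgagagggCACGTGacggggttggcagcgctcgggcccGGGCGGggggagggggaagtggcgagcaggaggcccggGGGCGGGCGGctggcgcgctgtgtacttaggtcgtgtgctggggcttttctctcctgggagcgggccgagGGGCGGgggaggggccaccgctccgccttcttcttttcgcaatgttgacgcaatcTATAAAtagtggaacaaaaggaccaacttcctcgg
Gm32856 (chr8:129263380-129263679, plus strand): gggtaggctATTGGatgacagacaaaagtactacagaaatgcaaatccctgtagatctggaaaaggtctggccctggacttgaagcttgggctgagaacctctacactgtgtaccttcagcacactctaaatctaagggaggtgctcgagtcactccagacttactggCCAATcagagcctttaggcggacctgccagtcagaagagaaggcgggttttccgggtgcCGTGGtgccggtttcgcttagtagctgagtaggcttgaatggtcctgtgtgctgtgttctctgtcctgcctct
E330033B04Rik (chr15:96275226-96275525, minus strand): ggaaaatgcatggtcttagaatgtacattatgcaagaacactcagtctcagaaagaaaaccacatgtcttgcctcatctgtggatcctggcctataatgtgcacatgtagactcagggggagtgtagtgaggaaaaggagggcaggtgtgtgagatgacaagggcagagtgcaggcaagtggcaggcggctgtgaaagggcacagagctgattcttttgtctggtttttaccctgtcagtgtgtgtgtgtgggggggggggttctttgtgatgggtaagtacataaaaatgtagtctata
The search read both strands for the TATA box (TATAAA), the CCAAT box (letters as named), the GC box (GGGCGG), the cAMP response element (TGACGTCA), the C/EBP-ATF element (TGATGCAA), the E-box (CACGTG), the core of the hypoxia response element (ACGTG, contained in the E-box), the AP-1 site (TGACTCA), the cell cycle homology region (TTTGAA), E2F sites in 2 forms (TTTCGCGC and also TTTGGCGC) and the ER stress element core (CCACG). The letters of the TATA box were found in Gm20300 and Dleu2 (13.6% of promoters hold them), and CCACG in Dleu2 and Gm32856 (32.8%). The TATAAA match lay at base 54 of the Gm20300 window, on the reverse strand, and at base 266 of the Dleu2 window, after the start. Gm12022, Gm20300 and Gm32856 held the CCAAT box, which 37.4% of the 32851 promoters in the table hold. The Dleu2 promoter held 6 copies of GGGCGG, the GC box, which 35.7% of promoters hold, and 1 CACGTG, found in 7.15%. Its GC content was 69.0% with 29 CpG pairs, against medians of 52.7% and 7 over all promoters, while Gm12022 had 42.3% with 1 CpG pair. The E330033B04Rik window held none of the motifs.

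Mature miRNAs are shown for A430106G13Rik, a transcript that fell and whose span holds the hairpin of Mir181b-1, and for Dleu2, where 1 transcript fell and others, over longer genomic spans, hold that of Mir16-1, from RefSeq on GRCm38.p6 with the seed (bases 2 to 8) in capitals.
miR-181b-5p (chr1:137966650-137966673, plus strand): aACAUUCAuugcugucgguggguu
miR-181b-1-3p (chr1:137966690-137966710, plus strand): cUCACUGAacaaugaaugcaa
miR-16-5p (chr14:61631936-61631957, minus strand): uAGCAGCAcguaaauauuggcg
miR-16-1-3p (chr14:61631894-61631915, minus strand): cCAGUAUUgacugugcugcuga
The 4 seeds differ. Levels of the mature miRNAs were not analysed here.

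Each library held 601626 to 652393 lncRNA counts in the control group and 1145192 to 1239163 in the H/R group, so 1 count was worth 1.59 to 1.99 CPM in control and 0.833 to 0.90 CPM in H/R libraries. CPM is the count relative to the lncRNA total of its library, after scaling with the trimmed mean of M-values (TMM), an edgeR step that sets the bulk of transcripts equal between libraries. A count in at least 1 library was present for all 4237 transcripts, and 2200 to 2270 of them were seen per control library and 2702 to 2930 per H/R library. Of the 10 neural stem and progenitor markers 6 were in the gene table, among them Nes and Sox2, and summed to 1412 to 1512 CPM in control and 1645 to 1737 in H/R libraries, and the others were not analysed here. Fibroblast and mesenchymal markers, with Col1a1 first, passed the filter for low counts in 5 of 6 cases and summed to 4906 to 6843 and 4475 to 5732 CPM. The neuron list summed to 73.2 to 81.1 and 33.7 to 37.9 CPM, nearly all of it Map2. Astrocyte markers were at most 0.150 and 1.37 CPM in sum and microglia markers at most 1.17 and 0.357. The part of these markers in the results below was not tested.

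Rn7sk, Rn45s and Metazoa_SRP held 78.0% to 80.8% of the counts of annotated intergenic lncRNAs in control and 75.2% to 76.4% in H/R libraries. Rn7sk, the 7SK RNA that holds the elongation factor P-TEFb inactive, took 31.2%, 30.1% and 34.3% of the lncRNA total under control conditions and 29.03%, 28.4% and 32.3% after H/R. Rn45s, the ribosomal RNA precursor, made up 13.6%, 16.1% and 17.3% against 16.4%, 16.5% and 12.1%. The groups overlapped for both, and neither passed (log2 fold changes of -0.19 ± 0.09 and -0.16 ± 0.13, edgeR adjusted p = 0.294 and 0.624). With gene-table scaling Rn7sk passed, at -0.42 (edgeR adjusted p = 0.0043). Per kb of transcript the mean level was 983950 CPM for Rn7sk, 46102 CPM for the signal recognition particle RNA Metazoa_SRP, 27882 CPM for Rn45s, 8896 CPM for Gm24447 and 268 CPM for Neat1. Neat1 had more counts than Gm24447 but, over its 20771 bases, the lower level per kb.

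All annotated intergenic lncRNAs together held 61.6% ± 3.28 (SD, n = 3) of the lncRNA counts in control and 61.2% ± 0.893 in H/R libraries, a difference of -0.476 percentage points (exact permutation test, two-sided, p = 0.9, with 0.1 the smallest p that 3 against 3 allows). Without Rn7sk, Rn45s and Metazoa_SRP, the share of the remaining counts was 23.7%, 25.3% and 26.5% in control and 28.3%, 27.4% and 27.3% in H/R libraries. These values did not overlap (25.2% ± 1.43 against 27.7% ± 0.570, n = 3, exact permutation p = 0.1). Set against the gene table, the group amounted to 4.60, 4.63 and 5.41 counts per 100 gene counts in control and 4.55, 4.51 and 4.35 in H/R libraries (exact permutation p = 0.1, n = 3). Without the 3 RNAs the direction was the other one, with 0.990, 1.02 and 1.04 in control and 1.11, 1.06 and 1.08 in H/R libraries (exact permutation p = 0.1, n = 3).

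**Figure D1:**
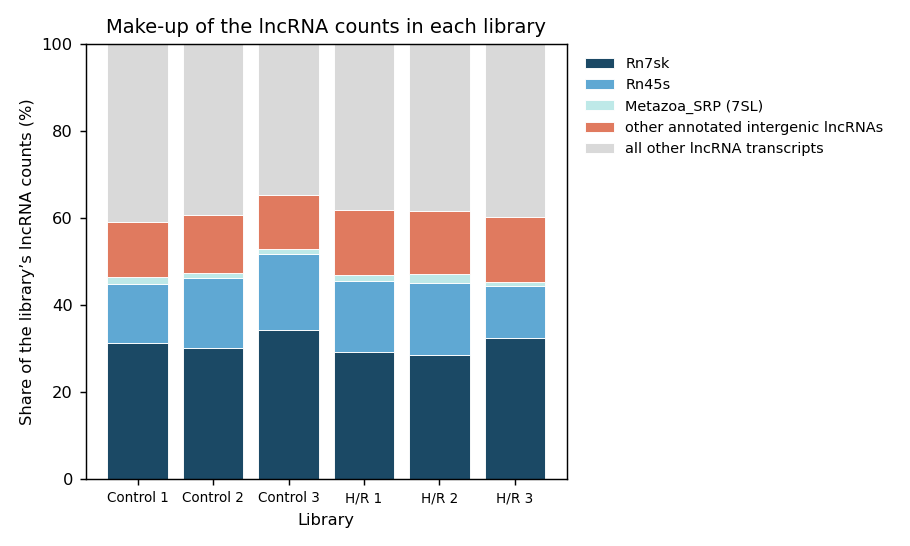
Bars give the percent of each library's lncRNA counts (y axis) for the 3 control and 3 H/R libraries (x axis), divided into Rn7sk, Rn45s, Metazoa_SRP, the other annotated intergenic lncRNAs and all remaining lncRNA transcripts. Rn7sk takes 28.4% to 34.3% of every library, and control replicate 3 has the largest total of annotated intergenic lncRNAs, 65.3%.

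After H/R, 65 of the 1250 annotated intergenic lncRNAs that had enough counts to be tested rose and 33 fell (edgeR quasi-likelihood test, Benjamini-Hochberg adjusted p under 0.05 over all 6779 tested lncRNAs). That is 5.20% and 2.64% of them, 7.84% in all, while the background over all tested lncRNAs was 2.67% higher and 2.26% lower, 4.93% in all. In other classes 9.17% of intergenic TCONS, 8.61% of intronic antisense and 7.95% of natural antisense transcripts passed. The share was 5.53% for bidirectional, 3.55% for exon sense-overlapping and 3.30% for intron sense-overlapping transcripts, and differences between classes were not tested. The median log2 fold change was 0.12 over the 1250 and 0.02 over all 6779, and the median of the mean count per library was 29.3 against 23.7. All 98 had H/R values wholly above or wholly below the control values, as did 380 of the 1250, against 24.0% of all tested lncRNAs (13.2% above and 10.8% below). With the looser rule that the study used (raw p under 0.05, change of 2-fold or more), 125 were higher and 68 lower, with a background of 6.92% and 4.97%. With H/R replicate 1, 2 or 3 left out, 29, 34 and 30 rose and 16, 18 and 20 fell, and 36 of the 98 passed in each of the 6 fits that left out a library. The filter on low counts set aside 2987 transcripts with a median of 6 counts over all libraries, of which 1124 had counts in H/R libraries only and 414 in control libraries only. The H/R libraries were deeper, with 1145192 to 1239163 lncRNA counts against 601626 to 652393. The part of this depth in the 2 numbers was not tested, so they do not show expression limited to 1 group.

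The split between rises and falls depended on what the libraries were scaled to. With library sizes and TMM factors from the gene table in place of the lncRNA table, 36 rose and 71 fell, and the median over all lncRNAs was -0.22 in place of 0.02. All 33 falls and 36 of the 65 rises remained past the threshold there, and none of the 98 changed sign. Without any scaling factors 82 rose and 27 fell, at a median of 0.12. Changes below are relative to the bulk of lncRNAs.

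By the annotation of GENCODE vM21, which is on the build of the files (GRCm38, mm10), intergenic was not the state of many of these spans. Of the 1250 tested, 371 lay on no gene, 295 on a lncRNA gene, 270 on a pseudogene and 237 on an exon of a coding gene on the same strand. A further 58 lay in a coding intron, 11 opposite a coding gene and 8 on another kind of RNA gene. On coding exons 26 rose and 5 fell (median log2 fold change 0.23), on no gene 17 rose and 6 fell (0.22), on lncRNA genes 12 rose and 13 fell (0.04), and on pseudogenes 7 rose and 8 fell (-0.03). By source, 46 of 721 GenBank transcripts rose and 15 fell, against 8 and 11 of 403 Ensembl transcripts. Whether these kinds differ was not tested.

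**Figure D2:**
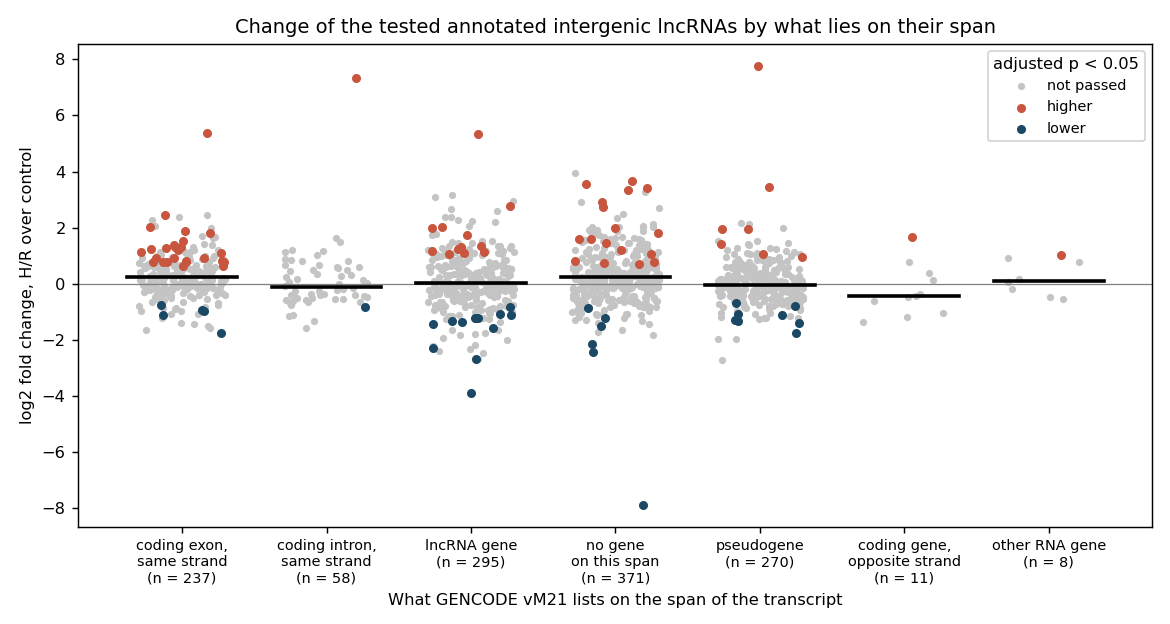
Each dot is the log2 fold change of H/R over control (y axis) of 1 of the 1250 tested annotated intergenic lncRNAs, grouped by what GENCODE vM21 lists on its span (x axis), and the bar is the median. Rises outnumber falls on coding exons (26 and 5), while on lncRNA genes they are nearly even (12 and 13). Dots beyond 7 in either direction had no count in 1 of the groups, and their fitted value depends on the prior count.

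Several of the 10 rises with the smallest adjusted p lay at the ends of coding genes. The 2 transcripts with the smallest adjusted p lie in a row behind Ptchd4, a patched-domain protein that p53 induces. AK038392 (chr17:42508404-42511163, plus strand, 3.33 kb downstream of Ptchd4) was at 156, 167 and 143 CPM in control and 462, 409 and 405 CPM in H/R libraries. AK048476 (chr17:42518401-42521447, 13.3 kb downstream) was at 62.1, 52.0 and 69.7 CPM in control and 200.0, 243 and 206 CPM in H/R libraries. In both, every H/R library was above every control library. The log2 fold changes were 1.45 ± 0.20 (SE, adjusted p = 0.000314) and 1.82 ± 0.25 (adjusted p = 0.000298) by edgeR. Ptchd4 itself was at 57.0 ± 5.77 CPM (SD, n = 3) of the gene table in control and 118 ± 5.58 in H/R libraries, a log2 fold change of 1.05 (edgeR adjusted p = 9.02e-06).

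AI414108 (NR_027907), uc009oqn.2 and AV461233 rose together within 11.7 kb of chromosome 9 on exons of Igsf9b, an adhesion protein of synapses. NR_027907 (chr9:27352685-27357543, plus strand) lies beyond the last coding base of Igsf9b and was at 129, 128 and 177 CPM in control and 365, 428 and 459.9 CPM in H/R libraries. All H/R values were far above the highest control value, and the log2 fold change was 1.53 ± 0.22 (SE, edgeR adjusted p = 0.000354). Igsf9b in the gene table rose by 1.29 ± 0.19 on the log2 scale (edgeR adjusted p = 0.000152), from 9.06 ± 0.574 to 22.1 ± 2.56 CPM (SD, n = 3). The tables were scaled separately, so only the changes, not the CPM, can be set side by side. AV461233 did not pass without H/R replicate 1 or 3 (edgeR adjusted p = 0.0576 and 0.0646).

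Further rises at the ends of coding genes follow, of which those at Exo1, Ankle1, Incenp and Parpbp were picked out after their values had been seen. AK030810 and AK166311 (chr5:3525612-3529438 and chr5:3527738-3530998, plus strand) overlap each other beyond the last coding base of Cdk6, the G1 kinase, and may share reads. AK030810 was at 463, 476 and 470.2 CPM in control and 938, 959 and 1138 CPM in H/R libraries, a log2 fold change of 1.11 ± 0.17 (SE, edgeR adjusted p = 0.000817), and AK166311 changed by 1.28 ± 0.20. Cdk6 in the gene table changed by 1.16 ± 0.13 (edgeR adjusted p = 1.90e-05). AK082043, on the end of Exo1, an exonuclease of mismatch repair, had 1 count in all control libraries and 34.2, 17.1 and 36.3 CPM in H/R libraries, and Exo1 rose by 1.59 ± 0.26. AK081737 and AK047953, up to 5 kb behind Ankle1, an endonuclease, rose from 9.55, 4.87 and 7.97 CPM to 48.3, 63.0 and 39.8 CPM and from 9.55, 0 and 0 CPM to 38.3, 45.9 and 22.5 CPM, beside a rise of Ankle1 by 2.29 ± 0.45. AK084060 behind Incenp, of the chromosomal passenger complex, and AK140134 behind Parpbp, a PARP1-binding repair protein, changed by 2.0 ± 0.43 and 2.91 ± 0.78 where Incenp changed by 1.08 ± 0.13 and Parpbp by 1.17 ± 0.16. The calls of these transcripts depended on single libraries. AK082043 was lost without H/R replicate 1 or 3, AK081737 without H/R replicate 2, and AK084060 without H/R replicate 1 (edgeR adjusted p = 0.0506 to 0.0790). AK047953 passed only without control replicate 1 and AK140134 only without control replicate 3, and the adjusted p of the remaining fits ran up to 0.196 and 0.251.

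Further rises lay beyond the last coding base of C1galt1, a glycosyltransferase (AK008884), of Zc3h12c, an RNase (AK039211), of Kif26b, a kinesin (AK083726 and uc007dvi.1), of Eif4ebp2, a translation inhibitor (uc007ffz.3), and of Lnpep, an aminopeptidase (uc008api.1). AK008884 was at 210.2, 222 and 215 CPM in control and 528, 502 and 499 CPM in H/R libraries, a log2 fold change of 1.24 ± 0.19 (SE, edgeR adjusted p = 0.000639) beside 0.77 ± 0.14 for C1galt1. DQ685776 (uc008api.1) was among the most abundant, at 3958, 3456 and 3411 CPM in control and 6119, 6281 and 6177 CPM in H/R libraries, and changed by 0.78 ± 0.13 (edgeR adjusted p = 0.00131) beside 0.47 ± 0.09 for Lnpep. AK029300 on the end of Vgll3, a TEAD cofactor, rose by 0.76 ± 0.15 beside 0.55 ± 0.13 for Vgll3, and fell short of the threshold with gene-table scaling (log2 fold change 0.52, edgeR adjusted p = 0.0697).

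Of 206 tested transcripts beyond the last coding base of a gene, 4 fell and 24 rose, while over all tested lncRNAs 2.26% fell and 2.67% rose. AK132225 (chr16:84949685-84954038, minus strand) lies beyond the last coding base of App, the amyloid precursor protein, and was at 231, 154 and 177 CPM in control and 51.7, 55.8 and 57.9 CPM in H/R libraries. The groups were far apart, and the log2 fold change was -1.76 ± 0.26 (SE, edgeR adjusted p = 0.000493), while App fell by 0.35 on the log2 scale. AK083162 lies on no gene, 0.234 kb behind Mbd2, a reader of methylated DNA, and is not among the 4 falls. It was at 142, 136 and 159 CPM in control and 44.2, 52.2 and 57.1 CPM in H/R libraries. It changed by -1.51 ± 0.27 (edgeR adjusted p = 0.00245) beside -0.10 ± 0.12 for Mbd2 (edgeR adjusted p = 0.541). AK051498 behind Zc3h15 changed by -1.21 ± 0.26 beside -0.10 ± 0.11 for that gene, and was lost without control replicate 2, H/R replicate 1 or H/R replicate 2 (edgeR adjusted p = 0.0634, 0.0828 and 0.0676).

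**Figure D3:**
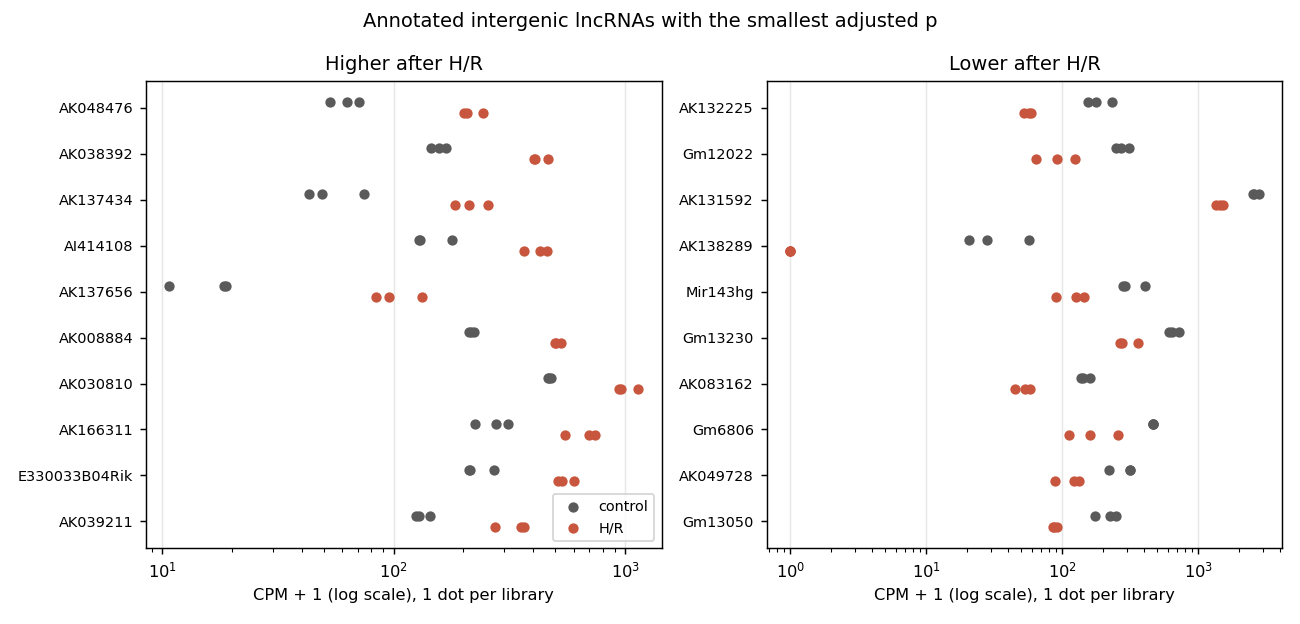
Dots are the CPM + 1 in each library (x axis, log scale) of the 10 annotated intergenic lncRNAs that rose (left) and the 10 that fell (right) with the smallest adjusted p, 1 per gene name, with control in grey and H/R in red. No H/R dot overlaps the control range of its transcript, and AK138289 has no count in any H/R library.

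Over all tested transcripts at coding genes, the changes correlated with those of the genes. Of the 237 tested on a coding exon, 206 lay beyond the last coding base, which is the far untranslated end of the gene, 18 across coding sequence, 7 between coding exons and 6 before the first coding base. For the 222 whose gene was tested, the log2 fold changes of transcript and gene had a Pearson r of 0.61 and a Spearman rho of 0.58, over points that share libraries and depth and in part genes. Of the 29 that passed with a tested gene, 18 of 25 rises had a gene that rose and 2 of 4 falls a gene that fell, none had a gene that passed in the other direction, and 9 had a gene that did not pass. Among all tested genes 18.8% rose and 19% fell.

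For 292 transcripts up to 5 kb downstream of a coding gene on its strand, a distance chosen after values had been seen, r was 0.60 over the 278 with a tested gene. There 11 of 19 rises had a gene that rose, none of the 4 falls had a gene that passed, and no gene passed in the other direction. At 1 kb r was 0.63 over 106 transcripts and at 10 kb 0.54 over 347. In introns of a coding gene r was 0.04 over 49, and for the remaining transcripts and their nearest coding gene on either strand it was 0.20 over 443. In that last group 5 of 15 rises had a nearest gene that rose and 4 had one that fell. Whether reads on a shared exon were counted in both tables is not stated, and their part in these values was not tested.

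**Figure D4:**
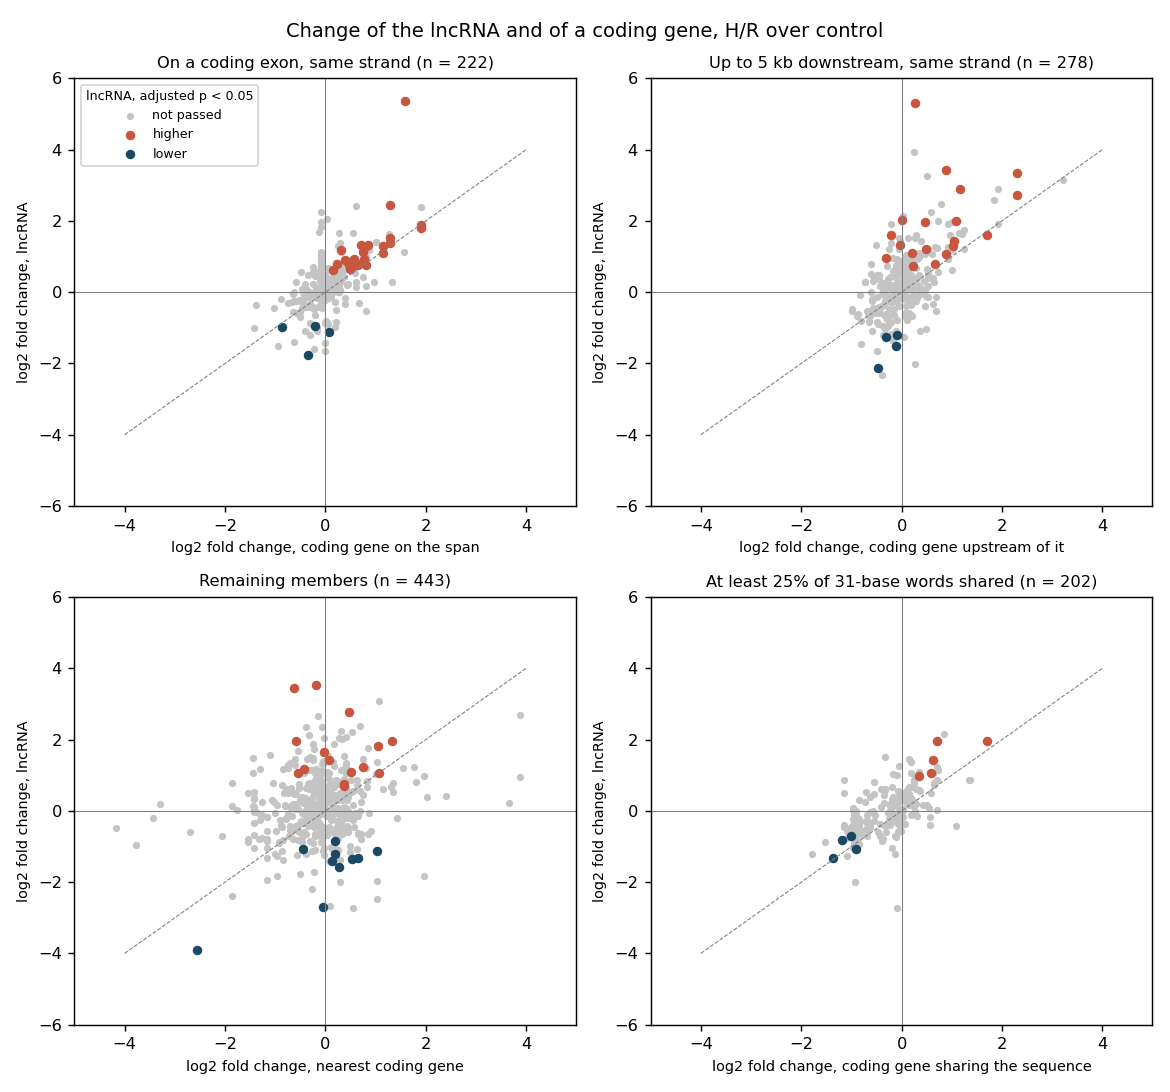
Each dot sets the log2 fold change of an annotated intergenic lncRNA (y axis) against that of a coding gene (x axis): the gene whose exon it lies on (222), the gene it lies up to 5 kb downstream of (278), the nearest gene of the remaining transcripts (443), and the gene whose sequence it shares (202). The dashed line marks equal change, and dots follow it in 3 panels (r of 0.61, 0.60 and 0.62) and spread around 0 in the panel of nearest genes (r of 0.20).

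Changes of pseudogenes correlated with those of the coding genes they copy. Sequences were available for 372 tested transcripts, and 209 shared at least 25% of their 31-base words with a coding transcript. Over the 202 with a tested coding gene, r between the log2 fold changes was 0.62. It was 0.53 over the 216 pseudogene transcripts with a sequence and a tested gene, and 0.34 over all 248 such transcripts, whatever their shared part. Reads of such copies cannot be assigned with certainty, so the values of these transcripts are uncertain. Of the 9 that passed and had a tested gene, 8 had a gene that passed in their own direction and none in the other.

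Gm5518, with 79.5% of its words in Hmgb1, a chromatin protein, was at 134, 218 and 155 CPM in control and 1080.1, 352 and 529.9 CPM in H/R libraries. Replicate 1 stood above the other H/R libraries, and the log2 fold change of 1.95 ± 0.32 (SE, edgeR adjusted p = 0.00118) became 1.40 without it (edgeR adjusted p = 0.0117), beside 0.70 ± 0.12 for Hmgb1. Gm10182, all of whose words occur in Hmgn2, a nucleosome-binding protein, changed by 1.96 ± 0.52 beside 1.71 ± 0.17. Gm7665 (59.6% in S100a11, a calcium-binding protein), Gm3571 (67.6% in Fdps, of the mevalonate pathway) and Amd-ps3 (96.8% in Amd1, of polyamine synthesis) rose by 1.42 ± 0.25, 1.06 ± 0.28 and 0.97 ± 0.24 on the log2 scale. Their coding genes rose by 0.63, 0.59 and 0.35. Gm10182 passed only without control replicate 3. Gm3571 was lost without control replicate 1 or 2 or H/R replicate 1 or 2, and Amd-ps3 without control replicate 2 or any H/R replicate, with edgeR adjusted p up to 0.155 for these 3 pseudogenes.

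Among falls, Gm13050 (31.5% in Eef2, a translation elongation factor) was at 174, 224 and 247 CPM in control and 90.0, 85.5 and 83.9 CPM in H/R libraries, a log2 fold change of -1.31 ± 0.24 (SE, edgeR adjusted p = 0.00251) beside -1.36 ± 0.10 for Eef2. Tcea1-ps1 (82.6% in Tcea1, an elongation factor of RNA polymerase II) changed by -1.07 ± 0.25 beside -0.92 ± 0.11. Gm1821 (98.3% in the ubiquitin gene Ubb) was at 1485, 1919 and 2973 CPM in control and 1226, 1357 and 1040.0 CPM in H/R libraries, with control replicate 3 highest. Its log2 fold change of -0.81 ± 0.21 (edgeR adjusted p = 0.0289) was -0.48 without that replicate, with an edgeR adjusted p of 0.126, and it was also lost without any one of the H/R replicates. Tcea1-ps1 was lost without control replicate 2 or any H/R replicate (edgeR adjusted p up to 0.0999). Gm13230 shares words with 35 coding genes, at most 8.37% with 1 of them, Zfp991, and Gm6806 shares none. The 2 pseudogenes changed by -1.13 ± 0.19 and -1.40 ± 0.26, and Zfp991 by -0.79 ± 0.17 (edgeR adjusted p = 0.00218). Atpase6 (uc007ams.1), a nuclear copy of a mitochondrial gene on chromosome 1, was at 1231, 1447 and 5871 CPM in control and 792, 739.8 and 963 CPM in H/R libraries. Its log2 fold change of -1.78 ± 0.39 was -0.67 without control replicate 3, and the call was lost without any one of the H/R replicates (edgeR adjusted p = 0.0522 to 0.0812).

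On lncRNA genes, several loci had more than 1 transcript that fell. At the Gm4258 locus on chromosome 1, AK040563, AK049728 and A430106G13Rik (ENSMUST00000182158) lie in a row over 20.5 kb of the plus strand, and all fell. AK049728 (chr1:137957825-137960627) was at 314, 221 and 313 CPM in control and 131, 122 and 87.3 CPM in H/R libraries, a log2 fold change of -1.32 ± 0.24 (SE, edgeR adjusted p = 0.00251). A430106G13Rik, whose span holds the hairpin of Mir181b-1 shown above, was at 188, 107 and 102 CPM in control and 35.0, 52.2 and 67.4 CPM in H/R libraries, with control replicate 1 highest, and changed by -1.36 ± 0.33 (edgeR adjusted p = 0.0210). It was lost without control replicate 1, H/R replicate 1 or H/R replicate 2 (edgeR adjusted p = 0.146, 0.135 and 0.0759). AK040563 changed by -1.07 ± 0.23 and was lost without H/R replicate 1 or 3 (edgeR adjusted p = 0.0682 and 0.0798).

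Gm12022 (ENSMUST00000143311, chr11:18467479-18493255, minus strand), 387 kb from Meis1, was at 309, 248 and 271 CPM in control and 63.3, 90.0 and 124 CPM in H/R libraries. All control values were above all H/R values, and the log2 fold change was -1.58 ± 0.26 (SE, edgeR adjusted p = 0.00118), while Meis1, a homeobox factor, did not pass (0.27 ± 0.17, edgeR adjusted p = 0.224). Gm20300 (NR_045008, chr10:30603195-30606634, minus strand) fell from 258, 221 and 203 CPM to 101, 93.6 and 93.4 CPM, a log2 fold change of -1.24 ± 0.23 (edgeR adjusted p = 0.00259). Hint3, 1.51 kb upstream of it, had a value of -0.32 ± 0.24. Both transcripts of Gm32856 on chromosome 8 fell, uc029wxa.1 by 1.22 and uc029wwz.1 by 0.85 on the log2 scale, the latter lost without control replicate 1 or any H/R replicate (edgeR adjusted p up to 0.157). AK029134, at 4732496C06Rik and 6.32 kb behind Nucb2, was at 62.1, 43.8 and 53.8 CPM in control and 5.83, 0 and 4.32 CPM in H/R libraries, and Nucb2, a calcium-binding secretory protein, fell by 2.55 on the log2 scale.

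Mir143hg, or Carmn, the host of the smooth-muscle miRNAs miR-143 and miR-145, had 2 tested transcripts that fell. ENSMUST00000181155 was at 408, 289 and 279 CPM in control and 126, 144 and 88.2 CPM in H/R libraries, a log2 fold change of -1.45 ± 0.24 (SE, edgeR adjusted p = 0.00135). NR_045402 was at 93.9, 86.0 and 89.7 CPM in control and 42.5, 38.7 and 32.9 CPM in H/R libraries, a change of -1.24 ± 0.33 (edgeR adjusted p = 0.0357) that passed in 0 of the 6 fits with a library left out. Of the mesenchymal markers, the smooth muscle actin Acta2 and Pdgfrb had log2 fold changes of -1.12 and -0.36, and Col1a1, Col1a2 and Dcn -0.06, -0.03 and 0.31. Their part in the values of Mir143hg was not tested, and in bulk RNA fewer cells of a kind and less RNA per cell cannot be told apart.

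Dleu2, which hosts miR-15a and miR-16-1, had 1 transcript that fell. This transcript at its promoter, uc007ugi.2 (chr14:61676013-61682373, minus strand), was at 236, 308 and 229 CPM in control and 107, 116 and 135 CPM in H/R libraries, a log2 fold change of -1.11 ± 0.23 (SE, edgeR adjusted p = 0.00661) that was lost without control replicate 2 or H/R replicate 1 (edgeR adjusted p = 0.0517 and 0.0619). The isoforms that reach the Mir16-1 hairpin did not pass, ENSMUST00000183245 at -0.25 ± 0.36 and ENSMUST00000180377 at -1.02 ± 0.64, and a test of the difference between isoforms was not made. Summed per gene name, Dleu2 fell by 0.86 on the log2 scale (edgeR adjusted p = 0.0143). Firre (uc009tdp.1), an X-linked RNA of nuclear organization, was at 38.2, 35.7 and 83.7 CPM in control and 11.7, 2.70 and 17.3 CPM in H/R libraries, a log2 fold change of -2.29 ± 0.63 (edgeR adjusted p = 0.0424). It passed in 1 of the 6 fits that left out a library, the fit without control replicate 2, and without control replicate 3 the value was -1.78 with an edgeR adjusted p of 0.190.

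Among rises on lncRNA genes, E330033B04Rik (NR_030690, chr15:96268564-96275275, minus strand) was at 210.2, 213 and 271 CPM in control and 598, 532 and 510.0 CPM in H/R libraries, a log2 fold change of 1.24 ± 0.20 (SE, edgeR adjusted p = 0.000907). Arid2, a chromatin remodelling subunit 12.2 kb away, rose by 0.75 ± 0.08. AK137656 (Gm47687, chr10:31448257-31452082, minus strand) was at 17.5, 9.74 and 17.9 CPM in control and 94.2, 82.8 and 131 CPM in H/R libraries, a log2 fold change of 2.77 ± 0.41 (edgeR adjusted p = 0.000452). The value of Tpd52l1, its nearest coding gene, was 0.48 ± 0.25 (edgeR adjusted p = 0.148). AK028508 (Gm43860) rose by 2.02 ± 0.35 beside Trmt44, whose value was 0.00 ± 0.18, and AK034112 (Gm42547) by 1.10 ± 0.21, with Zfp800 as its nearest coding gene, which rose by 0.52. AK137434, on no gene and 1.42 kb behind Tmem186, a mitochondrial membrane protein, was at 73.2, 42.2 and 47.8 CPM in control and 210.0, 184 and 256 CPM in H/R libraries.

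Of the transcripts that passed, 3 had no count in 1 group. Gm6650, a pseudogene with 31.8% of its words in Speer3, was at 20.8, 29.7 and 43.2 CPM in H/R libraries and AK141141 at 15.0, 27.9 and 26.8, with no count in any control library. With the floor at 3 counts over the control group, they were at least 18.2-fold and 13.5-fold higher. AK138289, on no gene of chromosome 11, was at 27.1, 19.5 and 55.8 CPM in control libraries and at least 39.4-fold lower in H/R libraries. Each of the 3 passed the filter on low counts only through the group where it was seen, and the bounds depend on the chosen floor. AK141141 could be tested in only 4 of the fits that left out a library. On the mitochondrial genome, AK131592, in the stretch that holds the control region, was at 2586, 2791 and 2516 CPM in control and 1511, 1352 and 1444 CPM in H/R libraries. The groups lay far apart, at a log2 fold change of -0.87 ± 0.15 (SE, edgeR adjusted p = 0.00135).

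Lists of well known lncRNAs held few transcripts that passed, as did the whole table, where 4.93% passed. Of 8 lists of named lncRNAs, 7 had tested transcripts, and in the lists of imprinted RNAs (2 tested), p53-linked RNAs (17), hypoxia and stress linked RNAs (4), pluripotency-linked RNAs (1) and structural RNAs (1) none passed by edgeR. Unadjusted p was under 0.05 for 1, 3, 1, 0 and 0 of them, and DESeq2 called 0, 1, 0, 0 and 0. Among nuclear and abundant RNAs 1 of 12 fell (Firre), and among small RNA hosts 1 of 15 (the Dleu2 transcript), with medians of 0.05 and -0.25. The lists overlap, and isoforms of a gene were counted singly. Most tested transcripts of the p53-linked and of the nuclear list are the same ones on Pvt1. Neat1 and Tug1 also stand in both, and Neat1 in the hypoxia list as well. Of the neural lineage list 3 transcripts were present and none had enough counts.

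Neat1, the scaffold of paraspeckles, was at 3203, 4718 and 6533 CPM in control and 6412, 6504 and 6061 CPM in H/R libraries. Control replicate 3 lay above all H/R libraries, and the log2 fold change was 0.39 ± 0.19 (SE, edgeR adjusted p = 0.288). Without control replicate 3 it was 0.69 (edgeR adjusted p = 0.0064), and without the filter on low counts 0.50 (edgeR adjusted p = 0.0029), both past the threshold. Tug1 (uc029rkg.1), a nuclear RNA that p53 induces, was at 43.0, 56.8 and 73.7 CPM in control and 101, 86.4 and 83.0 CPM in H/R libraries, without overlap but with a log2 fold change of 0.65 ± 0.32 that did not pass (edgeR adjusted p = 0.318). The 9 tested transcripts on Pvt1, the neighbour of Myc, ran from -1.04 to 0.53 and none passed. A snoRNA host at Snhg17 (ENSMUST00000149667) had 151, 180.2 and 199 CPM in control and 108, 109.8 and 80.4 CPM in H/R libraries, a log2 fold change of -0.83 ± 0.25 (edgeR adjusted p = 0.0615, DESeq2 adjusted p = 0.0381). AK017236, on Lncpint, an RNA that p53 induces, had a value of -0.67 ± 0.21 (edgeR adjusted p = 0.0729, DESeq2 adjusted p = 0.0299). The other tested transcripts on Lncpint, AK034494, AK053950 and Gm13834, did not pass by edgeR either. Their values were -0.06 ± 0.18, -0.38 ± 0.30 and -0.36 ± 0.39 (edgeR adjusted p = 0.914, 0.601 and 0.724).

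Of 1005 miRNA hairpins in the RefSeq table, 37 lay within 28 of the 4237 transcripts on the same strand, and 17 of those transcripts were tested. A430106G13Rik was the 1 that passed, beside 4.93% of all tested lncRNAs, and the median over the 17 was -0.25. Hairpins of miR-143, miR-145 and miR-15a were not among the 37, so the Mir143hg transcripts that fell were not counted as hosts here. Gm27028 with Mir30c-2 was at 71.6 ± 18.5 CPM (SD, n = 3) in control and 134 ± 12.9 in H/R libraries and did not pass (edgeR adjusted p = 0.0747). The Mir17hg transcript, with 6 hairpins of the miR-17 cluster, had 36.4 ± 14.4 and 50.8 ± 9.49 CPM, and 6720427I07Rik with Mirlet7d 682 ± 91.0 and 698 ± 119 CPM. C130071C03Rik, the host of Mir9-2 that neural progenitors express, had 0, 1 and 4 counts in control and 15, 14 and 16 in H/R libraries (edgeR adjusted p = 0.383).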

How the data were processed

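Per the labels, ribosomal RNA was removed before library preparation and the libraries were read as pairs. Both tables hold raw counts, made by the authors, of reads per lncRNA transcript and per gene. The submitters' processing notes name HISAT2 2.0.4, STAR 2.5.1b, cutadapt 1.9.3, HTSeq 0.9.1 and edgeR 3.16.5. Which tool counted the lncRNA table, and with which strand setting, is not given in the sources used here. Reads of overlapping or near-identical transcripts can therefore be shared. The deposited files also hold 24 further value columns and the authors' own comparisons, which were not used, nor was the circular RNA table.

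The lncRNA table was reduced to 1 line per transcript. Counts of all transcripts were tested with edgeR 4.0.16 in R 4.3.3 (filterByExpr, TMM, quasi-likelihood test, Benjamini-Hochberg adjustment at 0.05), and the gene table was fitted in the same way but scaled separately. Steps were tested on simulated data. Spans were compared with GENCODE vM21, and sequence shared with coding transcripts was counted in words of 31 bases. Values with no fit were compared by exact permutation tests. Alternatives were DESeq2 1.42.0, other scalings and filters, thinned libraries, counts summed per gene name, a replicate block, and each library left out.

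Transcripts named by rule were the 10 rises and 10 falls with the smallest adjusted p, 1 per gene name, the most abundant transcripts and the members of the lists. Any other was picked with its values in view. The transcripts, lists and alternatives were chosen with earlier results of these data known. Replicate numbers were not used to pair the libraries in the main fit. A marker list of 1 further cell type is not reported here.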

Additional observations from a re-analysis of the deposited data

How the results depend on the processing

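The counts of 65 rises and 33 falls became 125 and 68 at the thresholds of the study, 36 and 71 with gene-table scaling, and 29 and 19 among transcripts on a lncRNA gene or on no gene, an alternative chosen after seeing the data. With each library left out they ran from 29 to 69 and from 16 to 32. DESeq2 gave 83 and 48, no filter on low counts 91 and 34, and the replicate block 57 and 31. Deviations of same-numbered libraries correlated between -0.012 and 0.0077 for lncRNAs and between 0.0042 and 0.039 for genes. Those of differently numbered libraries ran from -0.018 to 0.012 and from -0.031 to 0.0077, and the main fit used no pairing. Of the 98 calls, 65 rises and 32 falls remained with DESeq2, 36 and 33 with gene-table scaling, 65 and 27 without scaling factors, 65 and 29 without a filter, and 55 and 30 with the replicate block, and none changed sign in any of these. Among transcripts of the report, gene-table scaling ended the calls of AK029300, Amd-ps3, Gm3571, Gm10182 and AK047953 (edgeR adjusted p = 0.0529 to 0.0936), and the replicate block those of Gm3571, Gm10182, AK140134 and NR_045402 (0.0527 to 0.0595). No scaling factors and no filter each ended those of uc029wwz.1 and NR_045402 (0.0501 to 0.139), 1 CPM in 3 libraries that of NR_045402 (0.0776) and DESeq2 that of uc007ams.1 (DESeq2 adjusted p = 0.126).

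Changes of sign among transcripts named by rule were limited to those that had not passed, and the cause was not tested. With gene-table scaling the log2 fold change was -0.18 for Metazoa_SRP, -0.089 for Snhg7, -0.14 for Pvt1 ENSMUST00000182476, -0.18 for Snhg4 and -0.21 for Mir22hg. With the replicate block it was -0.025 for Metazoa_SRP and -0.023 for Snhg4. Without scaling factors it was 0.0011 for AK046569, 0.0010 for Airn, 0.038 for AK034494, 0.012 for 2810008D09Rik, 0.067 for Pvt1 ENSMUST00000182141 and 0.082 for Pvt1 ENSMUST00000183028. Without a filter it was 0.036 for AK034494, 0.016 for 2810008D09Rik, 0.060 for Pvt1 ENSMUST00000182141 and 0.079 for Pvt1 ENSMUST00000183028, and with 1 CPM in 3 libraries 0.020 and 0.041 for those Pvt1 transcripts. With thinned libraries it was 0.024 for 2810008D09Rik and -0.14 for Mir22hg. Summed per gene name it was 0.13 for Pvt1 (ENSMUST00000182380, ENSMUST00000182141 and ENSMUST00000183028), 0.15 for Gm14005, -0.86 for Dleu2 (ENSMUST00000182957) and -0.0072 for Mir22hg. With each library left out the range was -0.25 to 0.021 for Rn45s, -0.31 to 0.36 for Metazoa_SRP, -0.21 to 1.19 for Gm24447, -0.19 to 0.076 for AK046569, -0.58 to 0.033 for Gm13834, -0.43 to 0.086 for Dleu2 ENSMUST00000183245, -0.86 to 0.29 for PVT1_2 and -0.062 to 0.45 for DT905422. It was -0.44 to 0.15 for Airn, -0.14 to 0.041 for AK034494, -0.11 to 0.026 for 2810008D09Rik, -0.32 to 0.78 for Pvt1 ENSMUST00000182476, -0.21 to 0.11 for Pvt1 ENSMUST00000182141, -0.17 to 0.41 for Snhg4, -0.36 to 0.52 for Mir22hg and -0.29 to 0.16 for Pvt1 ENSMUST00000183028. A transcript near the filter has few counts per control library, where differences of the size seen here may not be detectable.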
